A study of Caenorhabditis elegans with 2 samples.

Results

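The regions described here are the 516 peaks of a LIN-13 ChIP-seq experiment that lay on an autosome and at the promoter of a single protein-coding gene. A peak was taken when its summit, the position of strongest signal, fell from 1000 bp upstream to 200 bp downstream of an annotated transcription start site (TSS) of exactly 1 coding gene. They made up 41.1% of the 1256 autosomal peaks in the authors' final list (exact 95% binomial interval 38.3% to 43.9%), and 33.6% of the whole list, to which chromosome X added 278. The other autosomal peaks were 454 with a summit in the windows of 2 or more coding genes and 286 with a summit in no coding window. The 516 peaks belonged to 502 genes, which is 2.91% of the 17242 autosomal protein-coding genes. Within the final list the choice used positions only, with no further filter on signal. The final list is itself the top of a pooled list of both replicates by signal, and its lowest signal was 32.8. Signal could vary only above that limit, which also bears on the replicate ranks. Sequence and gene identity took no part in the choice.

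The DNA came from whole embryos of the nematode Caenorhabditis elegans at mixed stages, with both sexes pooled. The strain, OP51, carries the allele unc-119(ed3) on chromosome III and the transgene wgIs51, which encodes LIN-13 with an eGFP tag. The 2 samples were biological replicates of 1 group, and no second genotype or condition was analysed here, so the replicates and the classes of peaks are the only things to compare. The labels give lin-13 as the antibody target and eGFP-lin-13 as the tagged protein, and whether untagged LIN-13 was recovered too was not tested. In whole embryos a site bound weakly in many cells and a site bound strongly in a few cannot be told apart.

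LIN-13 has zinc fingers and belongs to the synMuv B (synthetic multivulva class B) proteins, chromatin regulators that keep vulval and germline genes from being expressed in the wrong cells. It is known to act with HPL-2, a relative of heterochromatin protein 1. Most worm genes are trans-spliced, so the annotated start of a transcript is often the splice acceptor, and transcription itself begins some way upstream of it.

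Sequences under some of the strongest summits are shown as examples, and they are not a sample of the class. They are 8 of the 9 strongest peaks of the class, all but that at cox-5B, followed by fbxl-2, the next shown for an E2F-like word after cdc-48.1. Each run is 50 bp either side of the summit in ce11 (RefSeq genome of WBcel235), read 5′ to 3′ on the strand of the gene. Capitals mark the E2F-like words (TTCCCGC or TTCGCGC or TTGCCGC or TTGGCGC), the GAGA repeat GAGAGAGA, and the words AAACACGC, AAGTGTNCG and GCTGNCGC, on either strand.
rpl-3 (chrIII:3867525-3867625, plus strand): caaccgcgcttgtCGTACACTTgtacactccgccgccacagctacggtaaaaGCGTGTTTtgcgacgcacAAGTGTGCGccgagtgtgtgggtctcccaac
rpl-35 (chrIII:7854637-7854737, plus strand): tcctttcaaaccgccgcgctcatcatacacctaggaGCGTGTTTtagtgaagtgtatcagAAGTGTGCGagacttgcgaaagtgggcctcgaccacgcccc
cdc-48.1 (chrII:10563531-10563631, minus strand): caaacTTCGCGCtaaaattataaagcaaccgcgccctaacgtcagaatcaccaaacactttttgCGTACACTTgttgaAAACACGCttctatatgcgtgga
hsp-1 (chrIV:17278534-17278634, plus strand): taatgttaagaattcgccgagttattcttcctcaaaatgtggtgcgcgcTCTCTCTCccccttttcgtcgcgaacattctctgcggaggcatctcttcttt
K12H4.5 (chrIII:8043928-8044028, plus strand): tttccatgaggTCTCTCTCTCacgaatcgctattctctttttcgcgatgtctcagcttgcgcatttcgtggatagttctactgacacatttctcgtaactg
cox-5A (chrIII:12905152-12905252, plus strand): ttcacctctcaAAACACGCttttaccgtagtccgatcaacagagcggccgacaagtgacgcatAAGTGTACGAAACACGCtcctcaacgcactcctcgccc
eelo-2 (chrIV:17249851-17249951, plus strand): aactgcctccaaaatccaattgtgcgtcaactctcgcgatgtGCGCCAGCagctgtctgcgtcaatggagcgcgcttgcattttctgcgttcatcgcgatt
tos-1 (chrV:9344220-9344320, minus strand): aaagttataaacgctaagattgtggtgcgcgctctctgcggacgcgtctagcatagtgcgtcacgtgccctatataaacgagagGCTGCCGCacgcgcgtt
fbxl-2 (chrIII:4757129-4757229, plus strand): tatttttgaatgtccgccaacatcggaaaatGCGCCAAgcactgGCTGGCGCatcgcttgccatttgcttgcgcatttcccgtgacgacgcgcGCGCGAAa

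The peaks at rpl-3, rpl-35, cdc-48.1 and cox-5A carried both AAACACGC and AAGTGTNCG within 50 bp of the summit. The genes rpl-3 and rpl-35 encode proteins of the large ribosomal subunit, cdc-48.1 encodes an AAA ATPase that extracts ubiquitinated proteins from complexes, and cox-5A encodes a subunit of cytochrome c oxidase. No other peak of the class held both words, and these 4 were among the 6 members with a signal over 200. None of 454 peaks at shared promoters, 286 peaks away from promoters, 278 peaks on chromosome X and 5876 lower-ranked promoter regions held both. Lower-ranked promoter regions are regions of the pooled list outside the final set that pass the same positional rule. Both words were found in 2 of 17242 windows of the same length placed 244 bp upstream of the start of every autosomal coding gene. The words were picked from these very sequences, so the counts describe them and are no test. Alone, AAACACGC was at 21 members (4.07%), 2.20% of shared-promoter peaks, 2.88% of peaks on chromosome X and 24 lower-ranked regions (0.408%). AAGTGTNCG was at 15 members (2.91%), 1.32% of shared-promoter peaks, 0.360% of peaks on chromosome X and 24 lower-ranked regions (0.408%). In peaks away from promoters the shares of the 2 words were 0.699% and 0%.

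The peaks at eelo-2, tos-1 and fbxl-2 held the word GCTGNCGC, which recurred widely. It came out of a count of all 8-letter words within 50 bp of the members' summits, of which 58 were in at least 4% of them, ordered by their excess over lower-ranked promoter regions. First in that order was GCGCCAGC (GCTGGCGC on the other strand), at 33 members (6.40%) and 11 lower-ranked regions (0.187%). A little further down was GCGTCAGC (GCTGACGC), at 27 members (5.23%) and 14 lower-ranked regions (0.238%). With any base at the fifth position, GCTGNCGC lay within 50 bp of 59 members (11.4%, exact 95% interval 8.82% to 14.5%). The share was 11.7% at shared promoters (8.87% to 15%), 5.76% on chromosome X (3.33% to 9.18%) and 2.10% in peaks away from promoters (0.774% to 4.51%). Lower-ranked promoter regions had it at 0.766% and all autosomal promoter windows at 0.481%. The word was chosen on the members after their sequences had been seen, from an order that used the lower-ranked regions. Its shares in members and in lower-ranked regions are therefore a description, and the contrast between them is no test. The peaks at shared promoters and on chromosome X took no part in that choice. The differences between classes in this word were not tested.

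**Figure D1:**
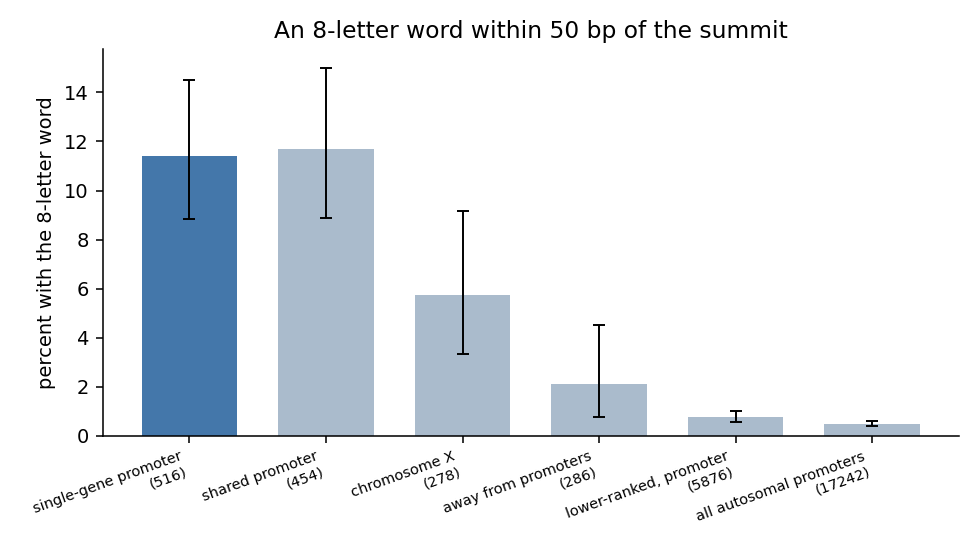
Percent of regions with GCTGNCGC or its reverse complement within 50 bp of the summit, by class of region, with exact 95% binomial intervals and the number of regions under each bar. The bars for the single-gene and shared promoters stand at 11.4% and 11.7%, and those for lower-ranked regions and all promoters below 1%. The word was picked from an order by excess in single-gene peaks over lower-ranked regions, so that contrast is no test.

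The word sat close to the summit. Its centre was a median of 8 bp from the summit at the 59 members, and within 20 bp at 51 of them. These 59 peaks had a median signal of 70.2, and 48 of them were in the top of both replicates, that is among the strongest regions of each replicate's own list, counted up to the number of peaks in the final list. None of them held the GAGA repeat within 100 bp, and 23 held an E2F-like word there. None of the occurrences of GCGCCAGC and GCGTCAGC lay wholly in soft-masked sequence. Of the strongest of them, 8 are aligned here on the word, in capitals, with 14 bp on either side and on the strand where it reads GCTGNCGC.
eelo-2 (chrIV:17249879-17249914, minus strand): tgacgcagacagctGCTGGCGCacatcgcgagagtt
tos-1 (chrV:9344215-9344250, minus strand): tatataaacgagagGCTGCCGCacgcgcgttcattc
tomm-20 (chrV:12343727-12343762, minus strand): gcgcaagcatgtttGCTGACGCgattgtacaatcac
fbxl-2 (chrIII:4757159-4757194, plus strand): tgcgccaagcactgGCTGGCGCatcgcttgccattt
pcn-1 (chrIV:4049671-4049706, minus strand): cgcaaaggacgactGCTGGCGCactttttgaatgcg
Y94H6A.3 (chrIV:2676467-2676502, minus strand): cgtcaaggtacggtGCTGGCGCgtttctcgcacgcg
dnj-9 (chrII:4851808-4851843, plus strand): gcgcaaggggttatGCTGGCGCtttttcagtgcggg
C34C12.8 (chrIII:3460279-3460314, plus strand): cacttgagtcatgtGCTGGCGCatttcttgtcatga

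The word ran on the strand of the gene in 36 of the 59 peaks (61.0%, 47.4% to 73.5%). The genes of these 8, picked with the word after values had been seen, include tomm-20, which encodes a receptor for protein import into mitochondria, pcn-1, which encodes the sliding clamp of DNA replication (PCNA), and dnj-9, which encodes a J-domain cochaperone. Of the 59 peaks, 13 were at genes of the 29 lists described further on, which took in 96 of all 502 member genes.

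Averaged over the members, base composition changed around the summits. On the strand of the gene, G and C made up 55.7% of the bases at 3 bp beyond the summit (21 bp running mean over the 516 peaks), and fell to 32.0% at 122 bp beyond it, on the side toward the gene. T rose to 41.3% at 113 bp beyond the summit from 23.1% at the summit itself. A was highest on the far side, with 33.3% at 117 bp before the summit, little above its 33.2% at 250 bp before it. In the 5876 lower-ranked promoter regions the GC share peaked at 42.4% and the T share nowhere passed 33.6%. The median GC content within 50 bp was 49.5% in members, 41.6% in lower-ranked regions and 33.7% in all promoter windows, and the median number of CpG dinucleotides was 8, 4 and 3.

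**Figure D2:**
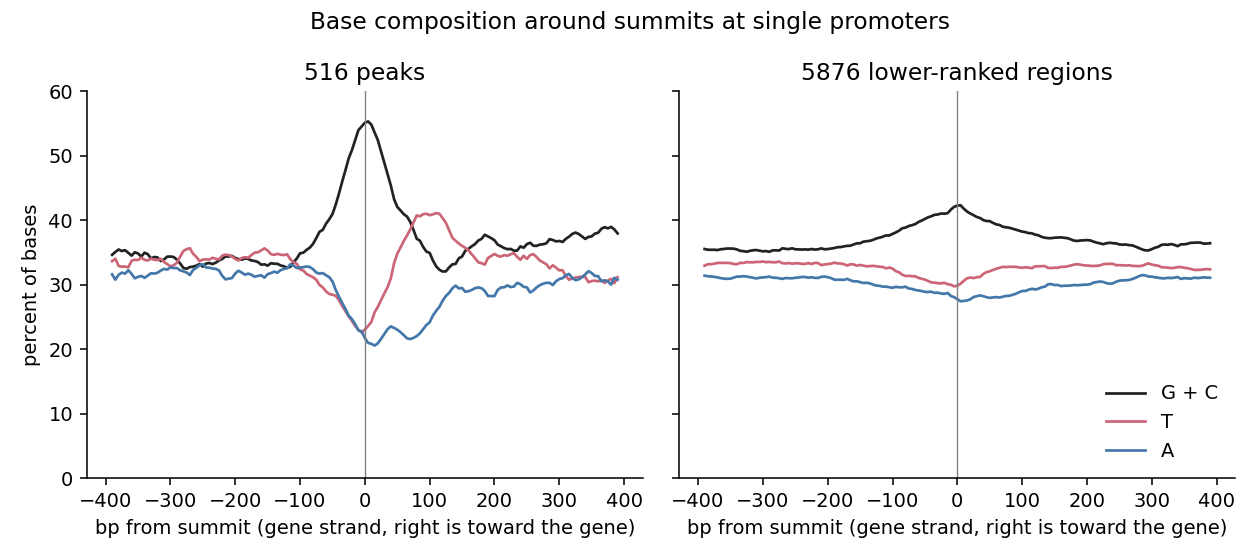
Percent of bases that are G or C, T, and A by distance from the summit in bp, oriented so that the gene lies to the right, for the 516 members (left) and 5876 lower-ranked promoter regions (right). The GC maximum of the members stands at 55.7%, with the T-rich stretch of 41.3% on the gene side.

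E2F-like words, bound by E2F and DP proteins of the DREAM complex, were within 100 bp of 23.1% of members (19.5% to 26.9%). The share was 11.9% in lower-ranked promoter regions and 7.09% in all promoter windows. The GAGA repeat was near 39 members (7.56%), 3.44% of lower-ranked regions and 1.98% of promoter windows. The words CCACCC and CCGCCC were near 17.2% of members, 12.5% of lower-ranked regions and 7.40% of promoter windows. They were also near 15.4% of shared-promoter peaks and 21.7% of peaks in no coding window. The cell cycle homology words TTCGAA and TTTGAA were near 46.9% of members, 47.2% of lower-ranked regions and 57.4% of promoter windows. For shared-promoter peaks their share was 55.9%, and for peaks in no coding window 30.1%. The E2F-like share hardly varied with signal, at 25% of the 100 strongest members and 22% of the 100 weakest. These are matches of letters on either strand, and GC content was not equal between the sets.

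Members carried signals from 32.9 to 488, on the authors' pooled scale, with a median of 50.2 (95% interval of the median 48.0 to 52.8) and quartiles of 39.2 and 69.4. Most were weak, and 57 passed 100, 14 passed 150 and 6 passed 200. Of the 100 strongest peaks of the final list 41 were members, and of the first 25, 9. The strongest was at rpl-3, with a signal of 487.5 and rank 1 in both replicates. The next were rpl-35 (250.3, ranks 26 and 3 in replicates 1 and 2) and cdc-48.1 (249.4, ranks 22 and 7). After them came hsp-1, a constitutive Hsp70 chaperone, at 214.2 and ranks of 292 and 5, so this peak stood high in replicate 2 and much lower in replicate 1.

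K12H4.5 followed (208.0, ranks 13 and 29), and then cox-5A, with 204.5 and ranks of 28 and 12. A second cytochrome c oxidase subunit gene, cox-5B, stood at 186.4 with ranks of 8 and 43. The transcriptional coactivator gene cbp-1, an acetyltransferase of the CBP and p300 family, stood at 154.8 with ranks of 37 and 42. These peaks were all in the first 50 regions of both replicates. The replication clamp pcn-1 reached 148.7 but ranks of 413 and 19, and the core histone gene his-37 had 130.7 with ranks of 440 and 31. Like hsp-1, both were placed higher by replicate 2. Histone genes have near-identical copies, so reads may be shared between them and the value for his-37 is uncertain.

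The remaining genes of the 25 strongest members had signals from 127.2 to 199.3. They included the import receptor tomm-20 (signal 157.8, ranks 14 and 138), the translation initiation factor gene eif-3.C (146.0, ranks 40 and 57) and the RNA-binding protein gene vig-1 (143.6, ranks 38 and 67). They also included the ESCRT ATPase gene vps-4 (138.5, ranks 149 and 37), the CCR4-NOT subunit gene ntl-11 (136.7, ranks 79 and 53) and the alpha tubulin gene tba-2 (130.0, ranks 133 and 62). The ubiquitin ligase gene wwp-1 (127.6, ranks 20 and 308) leaned to replicate 1, and the calreticulin gene crt-1 (127.2, ranks 48 and 112) closed the 25. The others were eelo-2, tos-1, Y39E4B.6, fbxl-2, Y39B6A.43, F36A2.7 and Y94H6A.3. Genes for ribosomes, chaperones, respiration and the cytoskeleton are used by nearly every cell.

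Most summits lay upstream of the TSS, at distances spread over the window. The median was 244 bp upstream (95% interval 220.0 to 258), with quartiles of 141 and 398 bp. Upstream summits numbered 492 (95.3%, 93.2% to 97.0%), 400 (77.5%) lay within 500 bp upstream and 296 (57.4%) between 101 and 400 bp. The fullest 100 bp bin, 101 to 200 bp upstream, held 126. The positional rule bounds these distances and is longer upstream, so they are a description. The lower-ranked promoter regions, under the same bounds, had a median of 313 bp and 81.0% upstream.

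The median distance was 254 bp for the 100 strongest members and 255 bp for the 100 weakest. The 24 summits downstream of the TSS had a median signal of 40.3, against 52.8 for those 101 to 400 bp upstream and 48.0 for the 92 beyond 500 bp. The strongest beyond 800 bp was cbp-1, 884 bp upstream. At cox-5B the summit was 3 bp upstream, and at rpl-35 it was 447 bp upstream. Just inside the upstream bound were M01F1.9 at 991 bp, unc-73 at 979 bp and ech-2 at 975 bp, with signals of 40.8, 48.3 and 60.7. Just outside were Y24D9A.7 at 1002 bp, otub-2 at 1013 bp and mrps-28 at 1019 bp, with signals of 45.2, 39.4 and 137. On the downstream side F12F6.1 at 195 bp, sms-3 at 181 bp and ZK112.4 at 173 bp were just inside, and ZK484.6 at 241 bp, F54F2.6 at 249 bp and pdl-1 at 287 bp just outside. The mrps-28 peak shows that a strong peak can miss the class by under 20 bp.

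**Figure D3:**
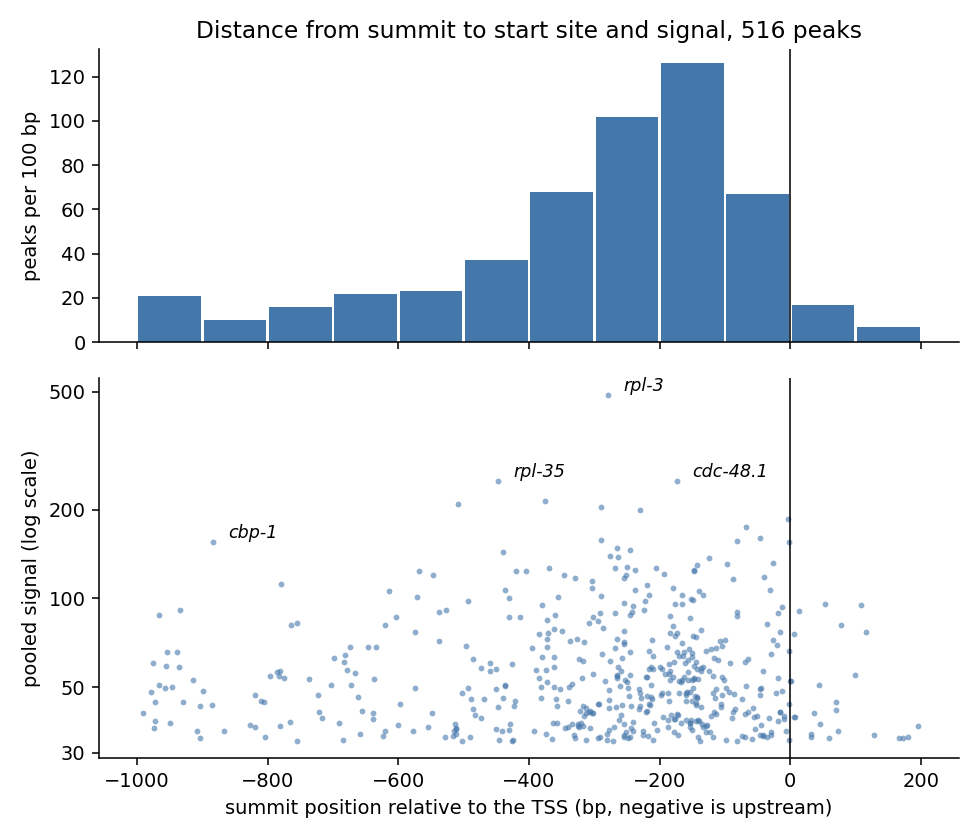
Number of peaks per 100 bp of distance between summit and TSS (top) and the pooled signal of each of the 516 peaks on a log scale against the same distance in bp (bottom), with upstream positions negative. The fullest bin, 101 to 200 bp upstream, holds 126 peaks, and signals over 200 all lie upstream.

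Intergenic sequence held 388 summits (75.2%, 71.2% to 78.9%), introns 59 (11.4%), exons of noncoding genes 41 (7.95%) and 5′ untranslated regions 18 (3.49%). Another 7 were in 3′ untranslated regions, and 3 (0.581%) in coding exons. Lower-ranked promoter regions were intergenic in 40.9% and in coding exons in 21.3%. The gene next upstream ran in the same direction for 310 members (60.1%) at a median of 662 bp, and for 54.4% of all autosomal coding genes at a median of 844 bp. For the 206 members with a divergent neighbour, the median distance was 3118 bp, against 1298 bp for all such genes. The rule favours this, since a divergent neighbour with a start near the summit puts a peak in the shared class.

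A trans-splice acceptor word, TTTCAG, ended within 16 bp before the TSS at 135 members (26.2%, 22.4% to 30.2%) and at 14.2% of all autosomal coding genes. With that word the summit was a median of 263 bp upstream (quartiles 178 and 372), and without it 226 bp (110.0 and 423). The gene had 2 or more annotated TSSs at 241 members (46.7%), and 51 summits (9.88%) lay over 200 bp downstream of the most upstream of them, at an internal start. A noncoding gene started in the same window at 100 members (19.4%), 29 of them with a snoRNA gene and 8 with a tRNA gene, so a single coding gene does not always mean a single transcription unit.

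Most genes had 1 member peak, and 13 had at least 2. The sphingomyelin synthase family gene sms-3 had 3, at 491 and 187 bp upstream and 181 bp downstream of the nearest TSS, with signals of 34.1, 38.7 and 34.0. The chromatin remodeller gene nurf-1 had peaks of 107 and 79.6, and the high mobility group gene hmg-1.1 had 84.6 and 49.7. The centromeric histone gene hcp-3 had 46.4 and 46.3, and his-72, a histone H3.3 gene, 40.0 and 34.7. These genes other than sms-3, hcp-3 and his-72 were named here after their values had been seen.

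Of 17242 autosomal protein-coding genes, 502 (2.91%) had a peak of their own in this sense, and 1422 (8.25%) had any autosomal peak in the window. The kinds of genes are read against those 2 shares, with no test, since genes are not replicates. Among 29 lists of genes, 5 had no member, and 96 of the 502 member genes were in any list. The lists were built from symbol prefixes and short sets of symbols, so they are incomplete, and each count and each order of genes below covers the listed genes alone. Member genes of like function that no prefix or set took in are named beside them, and these were named after their values had been seen. Genes with a 3 or 4 letter symbol, which is given to genes that have been studied or belong to a named family, were 73.7% of member genes and 55.4% of autosomal coding genes. By chromosome the share with a peak of their own was 4.13% on I, 3.28% on II, 4.02% on III, 2.74% on IV and 1.48% on V. The middle 50% of each chromosome's length held 55.2% of members and 55.7% of coding genes.

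Cytosolic ribosomal protein genes had the highest share of the 29 lists. Of 80 autosomal cytosolic ribosomal protein genes, 22 (27.5%, exact 95% interval 18.1% to 38.6%) had a peak of their own and 67 (83.8%) had any peak. After rpl-3 and rpl-35, the third was rpl-24.2 (signal 102.9, ranks 491 and 108). The 22 had a median signal of 68.0 and a median distance of 284 bp, 18 were in the top of both replicates, and 2 had an E2F-like word within 100 bp. The list of translation factors had 5 of 33 (15.2%), and the highest of the 5 were eif-3.C, eif-3.B (signal 65.7) and eif-3.J (58.9), which encode subunits of initiation factor 3. The initiation factor gene eif-2Bgamma, with a signal of 65.7 and ranks 1143 and 215, was outside the list. Mitochondrial ribosomal proteins had 6 of 70 (8.57%), led by mrpl-28 (116.6), mrpl-15 (68.7) and mrpl-55 (67.9). Of 31 aminoacyl-tRNA synthetase genes 1 (3.23%) had a peak of its own, kars-1, for lysine, at a signal of 33.9. That share is near the 2.91% of all autosomal coding genes.

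Energy supply, protein turnover and protein folding had shares from 8.06% to 17.4%. The respiratory chain list had 8 of 46 (17.4%), led by cox-5A, cox-5B and the cytochrome c1 gene cyc-1 (signal 86.8, ranks 233 and 335), and 7 of these 8 peaks were in the top of both replicates. The complex I subunit gene ndus-8, outside the list, had a peak of 52.8 with ranks of 385 and 1997, which is not in the top of both. Proteasome subunits had 5 of 33 (15.2%), with the ATPase genes rpt-1 (63.1) and rpt-6 (55) and the deubiquitinase gene rpn-11 (52.5) the highest. Chaperones had 5 of 62 (8.06%), led by hsp-1, dnj-9 (124.8, ranks 74 and 115) and the Hsp90 cochaperone gene sti-1 (62.2). Any peak was found at 45.7%, 42.4% and 41.9% of these lists.

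An E2F-like word lay within 100 bp of 23.1% of all members, and the share of peaks with such a word varied between lists. Nuclear pore and transport genes had 8 of 40 (20%, 9.05% to 35.6%), and 6 of the 8 peaks had such a word. The highest were the nucleoporin gene npp-8 (signal 126.6, ranks 145 and 65), the importin gene imb-3 (94.5) and npp-13 (57.6). The nuclear export gene rae-1, outside the list, had 61.9, above npp-13. DNA replication had 3 of 38 (7.89%), at pcn-1, the helicase gene mcm-4 (67.6) and the ribonucleotide reductase gene rnr-1 (35.3), and all 3 had the word. The rnr-1 peak had rank 679 in replicate 2 and no region with a summit within 100 bp in replicate 1. Kinetochore, spindle and centrosome genes had 5 of 62 (8.06%) with 6 peaks, 4 of which had the word, and any peak was found at 45.2% of that list. The highest of the 5 were the checkpoint gene mdf-1 (63.8), hcp-3 and the survivin homolog bir-1 (36.0). The central spindle kinesin gene zen-4 (117.2, ranks 667 and 44) and the spindle gene lin-5 (41.4) were outside the list. The word was also at 4 of 6 peaks of mitochondrial ribosomal protein genes, 3 of 5 of splicing, 2 of 4 of histone, 1 of 3 of meiosis and 1 of 3 of RNA polymerase, TAF and Mediator genes. It was at 2 of 3 of the synMuv B, DREAM and HP1 list, 2 of 5 of chaperones and 2 of 8 of the respiratory chain. Proteasome genes had it at 1 of 5 peaks, cytosolic ribosomal protein genes at 2 of 22 and translation factors at 0 of 5. Lists with 1 or 2 peaks are left out. These counts are small and were not tested between lists.

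The splicing list had 5 of 42 (11.9%), the highest being the Sm protein gene snr-4 (117.4, ranks 455 and 61) and the SR protein genes rsp-6 (86.2, ranks 56 and 688) and rsp-8 (77.0). The splicing factor genes plrg-1 (95.6) and smu-1 (93.9), and mog-4, mog-3 and sluh-7 with signals from 40.7 to 47.3, were outside it. The list of RNA polymerase, TAF and Mediator genes had 3 of 58 (5.17%), at cdk-7 (90.8), taf-12 (58.8) and the RNA polymerase II gene ama-1 (36.2). The Mediator genes sop-3 (48.4) and sur-2 (37.6) were outside it. Histones had 3 of 76 (3.95%, near the background of 2.91%), at his-37, the linker histone gene hil-2 (69.4) and his-72.

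The synMuv B, DREAM and HP1 list, which holds the partners of LIN-13, had 3 of 20 (15%, 3.21% to 37.9%). The DREAM subunit gene lin-9 stood at 96.1, with ranks of 225 and 195. The synMuv B gene lin-36 had 88.2 and ranks of 402 and 196. The zinc finger gene mep-1 had 35.8, rank 358 in replicate 1 and no region with a summit within 100 bp in replicate 2. The genes lin-13 and unc-119 themselves had no peak in the window, and the nearest summits on chromosome III were 20347 and 20478 bp away.

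Germline and developmental lists had between 1 and 3 members each. Meiosis genes had 3 of 37 (8.11%), at brc-1 (49.4), him-17 (47.8) and pch-2 (40.6), small RNA genes had alg-2 (37.2) and mut-16 (32.9) of 40, and germline RNA genes had the RNA helicase gene cgh-1 (112.3, ranks 135 and 218) of 30. Vulval induction genes had 1 of 18 (5.56%, 0.141% to 27.3%), sur-2, and homeobox genes 1 of 61 (1.64%), the PBX homolog ceh-20 (53.7). The exact intervals of the vulval and homeobox shares also include that background. Nuclear hormone receptors had nhr-64 (33.8) and nhr-41 (33.7) of 247 (0.810%), both with the summit downstream of the TSS.

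Large families of tissue-specific and environmental genes had almost no member. Chemoreceptor and other GPCR genes had 1 of 1275 (0.0784%, upper bound 0.436%), sre-23 (106.3, ranks 517 and 63). F-box and related genes had 1 of 378 (bath-40, 36.6), C-type lectins 1 of 237 (clec-126, 46.1), detoxification genes 1 of 171 (gst-27, 62.4) and collagens 0 of 145, which allows a share of up to 2.51%. The neuron, muscle, intestine and hypodermis markers, 10, 7, 8 and 7 autosomal genes, had none, which for lists so short is near the background of 2.91%.

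**Figure D4:**
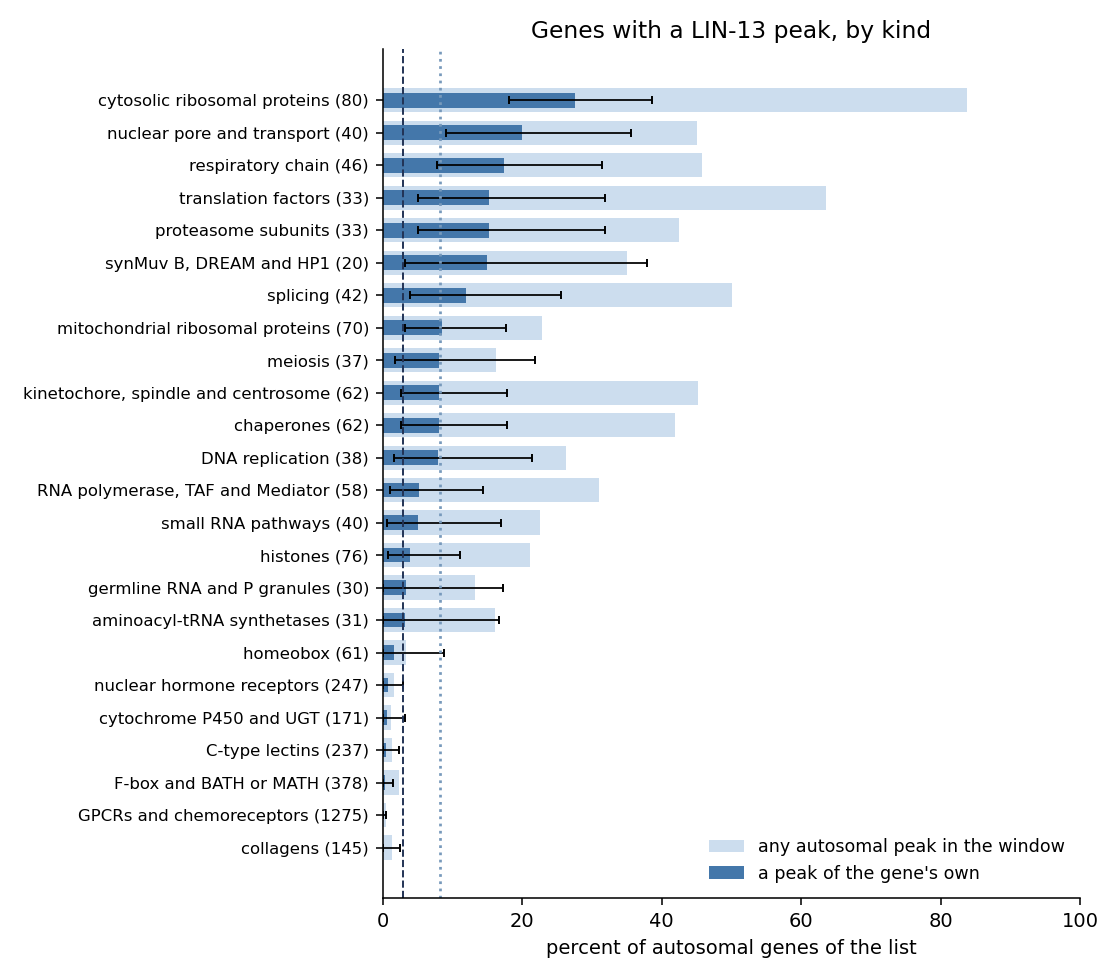
Percent of the autosomal genes of each list of 20 or more genes, with the number of genes in parentheses, that had a peak of their own (dark bars, exact 95% binomial intervals) or any autosomal peak in the window (pale bars). The dashed and dotted lines mark the shares over all autosomal coding genes, 2.91% and 8.25%, and cytosolic ribosomal protein genes stand farthest above them, at 27.5% and 83.8%.

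The pale and dark bars differ because most genes with a peak share it. Of the 1422 autosomal genes with any peak, 502 (35.3%, 32.8% to 37.8%) had one of their own. That share was 44.4% for nuclear pore genes, 38.1% for the respiratory chain and 32.8% for ribosomal proteins. It was 23.8% for translation and for splicing factors, 19.2% for chaperones and 17.9% for kinetochore and spindle genes. These lists hold between 18 and 67 genes with any peak, and the differences between them were not tested.

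Most members had a region in both replicate lists. A region with a summit within 100 bp was present in both replicate lists for 464 members (89.9%, 87.0% to 92.4%), in that of replicate 1 alone for 25, in that of replicate 2 alone for 25 and in neither for 2. The share in both lists was 78.9% with 50 bp between summits and 97.1% with 200 bp. A member without a match at 100 bp can therefore have a region a little farther off. The median rank was 746 in replicate 1 (quartiles 359 and 1436) and 749 in replicate 2 (359 and 1346). Each is over the 489 members with a match in that list, since the others have no rank there. In the top of both were 275 members (53.3%, 48.9% to 57.7%). That share was 98.0% for the 50 strongest members, 84.0% for members 101 to 200 by signal, 29.0% for members 301 to 400 and 6.03% for the last 116. The final list was made on the pooled signal, so a member need not rank high in either replicate. That signal is made up of both replicates, so its relation to the share is no independent measure of their agreement, and some of the strongest peaks, such as hsp-1, pcn-1 and his-37, had ranks far apart.

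Over the 464 members the Spearman correlation of the ranks was 0.370, a description over peaks of the same 2 libraries. It was 0.444 over 432 shared-promoter peaks and -0.0111 over 223 peaks away from promoters. The pooled rank followed replicate 2 (0.856) more closely than replicate 1 (0.715). Ranks were over 4-fold apart for 129 members (27.8%), with 60 better in replicate 1 and 69 better in replicate 2.

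**Figure D5:**
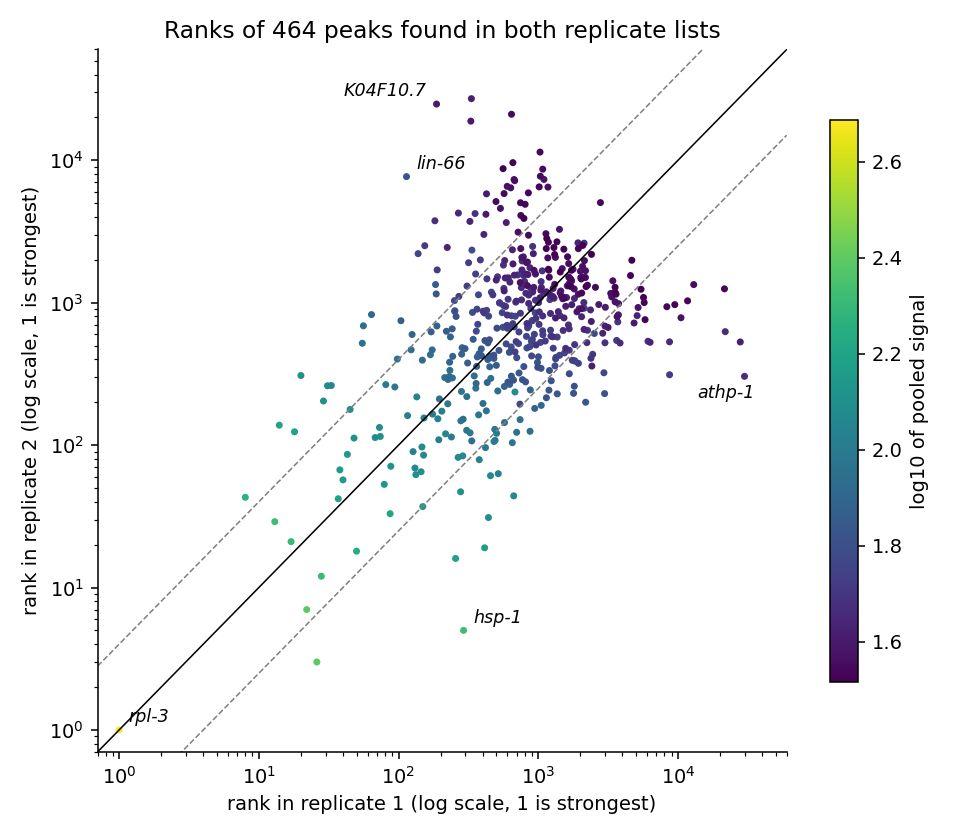
Rank of each of 464 members in the list of replicate 1 against that in the list of replicate 2, both on log scales where 1 is the strongest, coloured by the log10 of the pooled signal. The solid line is equal rank and the dashed lines a 4-fold difference in rank, and 129 members lie outside them.

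The largest ratios of ranks, apart from that of hsp-1, were in peaks of modest signal. On the side of replicate 2 stood athp-1 (ranks 29939 and 304), hsp-1 (292 and 5), cpn-3 (27918 and 530), vps-37 (21796 and 626) and Y22D7AL.6 (8707 and 312). On the side of replicate 1 stood K04F10.7 (187 and 24817), M04F3.4 (332 and 27088), lin-66 (114 and 7679), the Groucho corepressor gene unc-37 (329 and 18831) and the histone chaperone gene unc-85 (643 and 21044). Except hsp-1, with a pooled signal of 214, these ranged from 35.6 to 67.9. The strongest member with no region within 100 bp in replicate 1 was one of the nurf-1 peaks, at rank 25 in replicate 2 with a pooled signal of 107. The strongest with none in replicate 2 was at the spastin gene spas-1, at rank 412 in replicate 1 with a pooled signal of 73.1. The kindlin gene unc-112 (signal 36.4) and the Gq alpha gene egl-30 (34.0) had no region within 100 bp in either list. The nurf-1, spas-1, unc-112 and egl-30 peaks were named after their values had been seen.

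Members that replicate 2 ranked over 4-fold better were over 50% soft-masked, a rough mark of repeats, in 20.3% (11.6% to 31.7%), those within 4-fold in 13.4% and those that replicate 1 ranked better in 5% (1.04% to 13.9%). E2F-like words were at 30.4%, 23.3% and 16.7% of them. The distances to the TSS had medians of 220.0, 230.0 and 258 bp. The part of mapping or of the libraries in these values was not tested.

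Members were compared with each of the other autosomal classes in 7 features that the positional rule did not use, with two-sided exact tests after Fisher and p-values adjusted over all 14 by Benjamini and Hochberg. All peaks come from 1 pair of libraries and do not replicate each other, so the tests speak of this list alone. Against the 286 peaks in no coding window, members were stronger and were found in both replicates at a higher share. They were in the upper 50% of the final list by signal in 51.7% against 33.2% (exact adjusted p = 2.06e-06), in both replicate lists in 89.9% against 78.0% (exact adjusted p = 2.20e-05) and in the top of both in 53.3% against 35.7% (exact adjusted p = 5.48e-06). In the stronger 50% of the final list, presence in both lists was at 95.5% against 91.6% and no longer passed (exact adjusted p = 0.283). Over the whole list, members had an E2F-like word more often, 23.1% against 15% (exact adjusted p = 0.0119), and the GAGA repeat less often, 7.56% against 18.2% (exact adjusted p = 2.96e-05). A tRNA gene lay within 200 bp of 7 members (1.36%) and of 10.1% of peaks in no window (exact adjusted p = 3.05e-07). Distance to a tRNA gene is itself a position, so this difference may not be independent of the rule that split the classes. With 250 bp either side of the summit the E2F-like words no longer passed the test, at 28.9% against 25.2% (exact adjusted p = 0.306). Over 50% masked sequence was found in 13.6% against 8.39% (exact adjusted p = 0.0378). In replicate 1 alone it was 11.7% against 1.72% (exact adjusted p = 4.97e-07), and in replicate 2 alone 18% against 17.3% (exact adjusted p = 0.813). In the stronger 50% it was 12% against 8.42% (exact adjusted p = 0.536). Over 25% masked sequence was at 52.7% and 25.2% (exact adjusted p = 2.84e-13), and over 75% at 2.13% and 1.75% (exact adjusted p = 0.859).

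Against the 454 peaks at shared promoters, members were less often masked, somewhat weaker and somewhat less reproduced. Over 50% masked sequence was found in 13.6% against 27.3% (exact adjusted p = 6.66e-07), while over 75% masked sequence, at 2.13% against 3.08%, did not pass (exact adjusted p = 0.488). Members were in the upper 50% of the final list by signal in 51.7% against 58.6% (exact adjusted p = 0.0386), in both replicate lists in 89.9% against 95.2% and in the top of both in 53.3% against 63.2% (exact adjusted p = 0.00406 for each). With a window of 500 bp upstream these 3 differences shrank to 54.2% against 58.7%, 93.0% against 95.3% and 59.0% against 63.0% (exact adjusted p = 0.237, 0.237 and 0.270). In the stronger 50% of the final list the shares in both lists were 95.5% and 98.9% and those in the top of both 85% and 88.3% (exact adjusted p = 0.0654 and 0.411). E2F-like words were at 23.1% and 23.6%, a difference of -0.506 percentage points (exact adjusted p = 0.879), and tRNA genes at 1.36% and 0.441% (exact adjusted p = 0.200). The GAGA repeat was at 7.56% against 3.96% (exact adjusted p = 0.0276), a call lost in either replicate alone (exact adjusted p = 0.242 and 0.0522 for replicates 1 and 2), with 500 bp upstream, in the stronger 50% of the list and within 50 bp (exact adjusted p = 0.0752, 0.283 and 0.412). Median signals were 50.2 in members, 54.6 at shared promoters and 43.5 in no window.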

How the data were processed

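The authors' deposited lists of the build ce11 were used: 1 per replicate, 1 pooled and 1 final list by IDR (irreproducible discovery rate). They hold the signal per region that the peak caller gave, with no read counts, so the depth per sample is unknown and intervals cover only counts of peaks or genes. The deposited signal has a different scale in each list and was used only within a list. The final list is the top of the pooled list of 30000 regions, by signal. Per the labels the builds were ce11 and ce10. The sources used here give no aligner, peak caller or IDR threshold. The control experiment and the ce10 lists were not used here. With 2 replicates in 1 group there was no comparison between conditions.

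Summits, counted from 1, were placed against every annotated start of the WBcel235 protein-coding genes (Ensembl release 115), and sequence came from the NCBI RefSeq genome of WBcel235, which is ce11. A member and a replicate region matched when their summits were within 100 bp. Masked bases are lower-case bases within 100 bp, with a peak called masked above 50%. Motifs were sought on both strands within 100 bp unless another distance is given. Intervals are exact (Clopper-Pearson, 95%), and those of medians come from binomial order statistics. Fisher's exact tests were adjusted over the 14 comparisons at a threshold of 0.05. Python 3.11.15, NumPy 2.4.6, pandas 2.3.3, SciPy 1.17.1 and matplotlib 3.10.9 were used, and the code was checked on simulated data. Named genes were those of the 25 strongest members, up to 3 per list by signal, 5 per direction by ratio of ranks, those at the window's edges, lin-13 and unc-119. The members, lists and tests were chosen with earlier results of these data known, and some lists were trimmed after the annotation's symbols had been seen. The words AAACACGC, AAGTGTNCG and GCTGNCGC, and the genes with several peaks, were picked from the values. Alternatives were a shorter window, the most upstream TSS alone, noncoding starts left out, the stronger 50% of the final list, each replicate alone and other distances, rank limits, mask shares and motif windows.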

Additional observations from a re-analysis of the deposited data

How the results depend on the processing

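Of 96 alternatives, 67 left a result on its side of the threshold and in its range, and the others follow. With 500 bp upstream the median distance was 187 bp, and against shared promoters the differences in percentage points, members minus the others, were -4.47 in the upper 50% by signal, -2.33 in both replicates, -4.04 in the top of both, 2.02 for E2F-like words (turned in direction, exact adjusted p = 0.513), 2.96 for the GAGA repeat and 1.65 for tRNA genes, the last then passing (exact adjusted p = 0.0475). With noncoding starts left out the median distance was 218 bp. In the stronger 50% of the final list, members numbered 267 at 263 genes with a median signal of 68.4. Against shared promoters the differences there were -3.37 in both replicates, -3.33 in the top of both, 2.98 for GAGA and -0.00282 for tRNA genes (turned), and against peaks in no window 3.93 in both replicates and 3.56 masked. The remaining losses against shared promoters were -1.14 in both replicates with 200 bp between summits, -5.29 with the first 500 ranks, -0.952 with over 75% masked and 1.21 for GAGA within 50 bp. Against peaks in no window they were 0.384 with over 75% masked and 3.70 for E2F-like words within 250 bp. Exact adjusted p-values of these lost calls ranged from 0.0602 to 0.859. The causes were not tested.

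With either replicate alone the median signal was 20.3 to 33.3, on other scales, the GAGA difference from shared promoters 2.02 to 3.35, the tRNA difference -0.0829 to 1.59 and the masked difference from peaks in no window 0.745 to 9.97. Members numbered 513 and 477 and the median distance was 243 and 237 bp without replicates 2 and 1. No paired analysis was possible because the 2 replicates form 1 group. Depth is unknown, so peaks missed for lack of reads cannot be counted, and members near the lowest signal of 32.9 may depend on the threshold of the final list.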

Other observations

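By the first letters of the symbol, chosen after the values were seen, 3 of 7 autosomal swsn genes (42.9%), which encode subunits of the SWI/SNF chromatin remodeller, had a peak of their own. They were swsn-3 (signal 98.9, ranks 325 and 122), swsn-7 (82.8, ranks 174 and 466) and swsn-9 (42, ranks 922 and 2210). Of 9 hmg genes, which encode high mobility group proteins, 3 had one, at hmg-1.1, hmg-1.2 (60.5, ranks 360 and 631) and hmg-20 (32.9, ranks 5436 and 1243). Of 10 atg genes, which act in autophagy, 3 had one (30%). The background is 2.91% of autosomal coding genes, and no test was made of these small families.

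Other 8-letter words near the top of the count within 50 bp of members were CGCGTTTC, at 34 members (6.59%), 4.41% of shared-promoter peaks, 3.60% of peaks on chromosome X and 0.289% of lower-ranked promoter regions, and AGTGCGCC, at 21 members (4.07%), 3.74%, 1.08% and 0.170%. Nearly all their occurrences, 36 of 37 and 20 of 21, were at least partly outside masked sequence. The count was ordered by excess over lower-ranked regions, so the contrast with those regions is no test.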
